A study of Homo sapiens with 12 samples.

Results

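S100 genes encode small calcium-binding proteins, and 10 of them were examined by gene symbol in RNA-seq libraries of MDA-MB-231 cells, a triple-negative breast cancer line: S100A2, S100A3, S100A4, S100A6, S100A8, S100A9, S100A10, S100A11, S100A16 and S100P. Of these 10 genes, 9 were listed among the 19907 symbols of the files and 8 had enough reads to be tested among 18579 genes. The cells carried either the wild-type glucocorticoid receptor (wt-GR) or a CRISPR knock-in of the receptor gene NR3C1 that replaces a serine, a site of phosphorylation, with alanine (S134A-GR). Both lines were starved for 18 h in IMEM with 1% DCC (steroid-stripped serum) and then kept for 6 h with vehicle (Veh) or with TGFβ1 at 10 ng/mL. The 4 groups, wt-GR Veh, wt-GR TGFβ1, S134A-GR Veh and S134A-GR TGFβ1, had 3 libraries each, and no steroid was added in any of them. Each line is 1 clone, the wt-GR line being an unedited clone recovered from the CRISPR-treated population, so the knock-in cannot be told apart from other differences between the 2 clones. The sources used here do not say that replicates were separate cultures, so p-values measure the spread between libraries, which may be technical.

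S100 proteins bind calcium through paired EF-hand motifs, usually as dimers, and then expose a surface that grips target proteins such as annexins, cytoskeletal motors and ubiquitin ligase adaptors. Some are also released from cells and act on surface receptors such as RAGE and TLR4. Most of the genes lie side by side in a cluster on the long arm of chromosome 1, and several are known in breast cancer for their association with motility and invasion, S100A4 above all.

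Libraries held 56362036 to 129832227 counts assigned to genes, called reads here. All these totals lie above the mean number of sequenced reads per sample that the paper states. Whether both ends of a pair were counted was not tested, so 1 read here may be less than 1 fragment. Values are normalized counts, which are reads per gene divided by the DESeq2 size factor of the library, and a count of 3 reads corresponds to 2.15 to 4.89 normalized counts. VIM and CD44, markers of the mesenchymal state of these cells, averaged 468823 and 51106 normalized counts over the 12 libraries, whereas ESR1 and CDH1 averaged 3.26 and 6.17. ERBB2 averaged 9059 normalized counts. EPCAM, an epithelial adhesion gene of the same list, averaged 1024 ± 64.6 normalized counts in wt-GR Veh and 378 ± 51.7 in S134A-GR Veh (SD, n = 3; limma, log2 fold change -1.44, adjusted p = 5.7e-08) and was lower under TGFβ1 as well (-1.58, adjusted p = 2.6e-08), and its part in the results between the lines was not tested. By design the knock-in changes 1 amino acid, with a silent change nearby, and not the amount of RNA. Gene counts therefore cannot check the genotype label, and the NR3C1 transcript was lower in S134A-GR than in wt-GR cells under vehicle (limma, log2 fold change -0.41, adjusted p = 0.00012). Of the myeloid markers that accompany S100A8 and S100A9 in white blood cells, PTPRC, ITGAM and FCGR3B averaged 3.95, 4.22 and 0.333 normalized counts. The sum of the 6 myeloid markers ran from 876 to 1019 normalized counts in vehicle libraries and from 1629 to 2616 in TGFβ1 libraries, nearly all of it CSF1R, and without CSF1R it was 25.8 to 58.1 in all libraries.

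The members differ in the sequence before their transcription start. The 250 bases upstream of the start of the canonical transcript are shown for S100A2 and S100A3, the 2 members with the largest decrease in S134A-GR cells, and for S100A11, a member that was higher there, so that each direction is shown. Capitals mark matches to TGANTCA (AP-1), to CAGAC (a SMAD-binding element) or to AGAACA (1 arm of a glucocorticoid response element), searched on both strands. The sequences are from RefSeq (GRCh38.p14), all 3 genes lie on the minus strand, and the last base shown is next to the start. The windows are chr1:153565845-153566094 for S100A2, chr1:153549259-153549508 for S100A3 and chr1:152037005-152037254 for S100A11, and none overlaps an exon in GENCODE v44.
S100A2: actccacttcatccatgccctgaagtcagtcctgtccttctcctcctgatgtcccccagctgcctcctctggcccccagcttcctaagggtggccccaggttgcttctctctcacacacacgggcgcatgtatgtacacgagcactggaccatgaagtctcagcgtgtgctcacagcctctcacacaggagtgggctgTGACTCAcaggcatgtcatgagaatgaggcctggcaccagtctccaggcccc
S100A3: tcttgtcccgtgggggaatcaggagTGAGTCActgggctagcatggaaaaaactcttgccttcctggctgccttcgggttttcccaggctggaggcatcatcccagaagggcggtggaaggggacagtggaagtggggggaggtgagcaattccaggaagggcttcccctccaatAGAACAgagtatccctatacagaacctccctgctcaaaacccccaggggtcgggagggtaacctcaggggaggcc
S100A11: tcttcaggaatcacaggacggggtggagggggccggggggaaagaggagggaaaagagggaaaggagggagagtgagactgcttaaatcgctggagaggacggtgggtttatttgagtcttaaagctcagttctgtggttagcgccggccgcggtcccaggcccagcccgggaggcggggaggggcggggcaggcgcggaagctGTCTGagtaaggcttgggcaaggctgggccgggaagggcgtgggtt
The S100A2 sequence held TGACTCA at bases 52 to 46 before the start. S100A3 held TGAGTCA at bases 225 to 219 and AGAACA at bases 75 to 70, and S100A11 held GTCTG, the reverse complement of the SMAD letters, at bases 46 to 42. Over windows of 250 bases before and 50 bases after each start, TGANTCA occurred in 2 of 14 windows of the members and in 7.71% of all 35116 windows. CAGAC occurred in 9 of 14 against 45.3%, and AGAACA in 1 of 14 against 14.8%. S100A2, S100A8 and S100A16 have more than 1 window, and those of S100A8 overlap, so the windows are not independent. The CAGAC matches of S100A2 lie in its other window, 1957 bases from the canonical start. S100A6, the most abundant member, held none of the 3 in its window. These are matches of letters and no binding was measured.

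In level, the members spanned a wide range. To compare genes, the normalized count was divided by the length of the canonical transcript (normalized counts per kb). S100A6, also called calcyclin, stood first with 365046 ± 25535 per kb (mean ± SD, n = 3) in wt-GR Veh and 442357 ± 22319 per kb in S134A-GR Veh, and it ranked 2 among 17524 genes with a known length in each of the 4 groups. S100A10, the calcium-insensitive light chain that binds annexin A2, followed at 92407 ± 7344 per kb in wt-GR Veh. S100A11, a partner of annexin A1, stood at 72720 ± 4276 per kb, and S100A16, a widely expressed member, at 33926 ± 1458 per kb. S100A4, known as metastasin for its part in motility through non-muscle myosin, had 24338 ± 1087 per kb, and S100A2, a p53-binding member of epithelial cells, 7442 ± 500.0 per kb. S100A3, best known from the hair cuticle, reached 1211 ± 106 per kb and S100P, first found in placenta, 53.6 ± 27.3 per kb.

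This order was the same in 12 of 12 libraries. The closest neighbours were S100A10 and S100A11, whose ratio per kb ran from 1.04 to 1.30, and S100A16 and S100A4, with 1.09 to 1.98, and the values of neighbours did not overlap in any group. The 9 listed members made up 0.353% ± 0.0250 (SD, n = 3) of all normalized counts in wt-GR Veh, 0.331% ± 0.0139 in wt-GR TGFβ1, 0.413% ± 0.0149 in S134A-GR Veh and 0.397% ± 0.0223 in S134A-GR TGFβ1. S100A6 alone made up 49.2%, 43.7%, 53.8% and 50.4% of the members' sum in the same order of groups. The share therefore depends largely on S100A6 and does not describe the members singly. The total of all normalized counts also differed, with 9.07e+07 to 9.18e+07 in wt-GR Veh and 8.62e+07 to 8.64e+07 in S134A-GR Veh libraries.

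**Figure D1:**
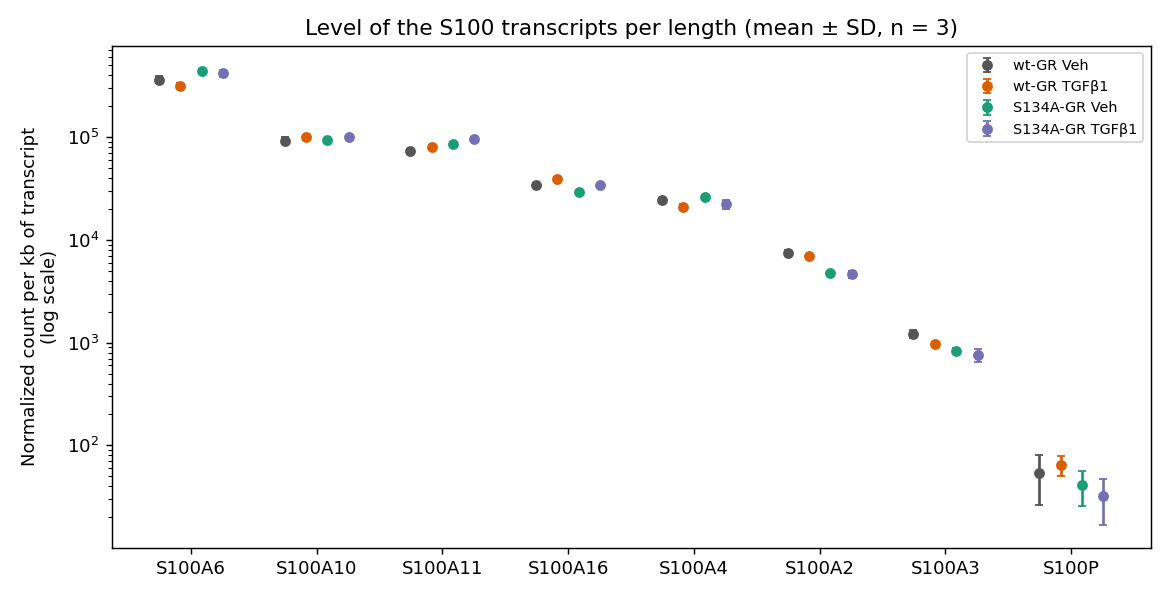
Level of the 8 tested members (x axis) as normalized count per kb of transcript (y axis, log scale), with points and bars giving the mean ± SD of 3 libraries in each group. The order runs from S100A6, at 317325 to 442357 per kb, to S100P, at 32.0 to 64.9 per kb.

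S100A8 and S100A9, which pair as calprotectin in neutrophils, were essentially not seen. S100A8 was not listed. S100A9 had 2 reads in S134A-GR Veh replicate 1, 2 reads in replicate 2, and 0 in the other 10 libraries. These counts are under the limit of 3 reads, so no difference between groups was detectable at this depth, and no fold change is given.

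The first question was how the lines differed under vehicle. Of the 8 members tested, 3 were lower in S134A-GR cells (S100A2, S100A3 and S100A16) and 2 were higher (S100A6 and S100A11), at a false discovery rate (FDR, the Benjamini-Hochberg adjusted p over all 18579 genes) under 0.05 in limma. All 5 differences were modest, and 0 of 8 members met the stricter rule, which also asks that the log2 fold change be 1 or more in size. Under this stricter rule edgeR's quasi-likelihood test and DESeq2 also gave 0 of 8 in each of the 5 comparisons. Over all genes, 51.5% passed at any fold change, 25% being higher and 26.5% lower, and 9.51% passed with the cutoff of 1, so 5 of 8 (62.5%) lies near the background. The median log2 fold change was -0.09 over the 8 members and 0.02 over all genes tested.

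S100A2 had the largest difference under vehicle. Its normalized counts were 7057, 6926 and 7830 in the wt-GR Veh libraries and 4761, 4594 and 4527 in the S134A-GR Veh libraries. Every S134A-GR library lay below every wt-GR library, and the log2 fold change was -0.65 (SE 0.06, adjusted p = 6.0e-07), or -36.3%. In bulk RNA, fewer cells with the transcript and less of it per cell cannot be told apart. S100A3 had 808, 937 and 950 normalized counts in wt-GR Veh against 599, 603 and 665 in S134A-GR Veh, again without overlap (log2 fold change -0.53, SE 0.10, adjusted p = 0.00049). S100A16 had 38314, 39324 and 41646 against 34056, 34923 and 33967 normalized counts, a change of -13.7% that exceeded the spread between libraries (log2 fold change -0.21, SE 0.04, adjusted p = 0.0006).

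S100A6 and S100A11 were higher in S134A-GR cells. S100A6 had 149559, 154879 and 170853 normalized counts in wt-GR Veh and 190336, 202387 and 183225 in S134A-GR Veh, and the groups did not overlap (log2 fold change 0.28, SE 0.07, adjusted p = 0.0029). S100A11 had 38685, 40663 and 43475 in wt-GR Veh and 47964, 49620 and 48907 in S134A-GR Veh, also without overlap (log2 fold change 0.26, SE 0.04, adjusted p = 7.0e-05).

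S100A4, S100A10 and S100P did not pass. S100A4 had 12054, 12287 and 13116 normalized counts in wt-GR Veh and 13467, 13984 and 12871 in S134A-GR Veh, and the ranges overlapped (log2 fold change 0.11, 95% interval -0.04 to 0.25, adjusted p = 0.20). S100A10 had 57325, 61541 and 67149 against 62647, 65142 and 61018, with an interval of -0.08 to 0.13 on the log2 scale (adjusted p = 0.72). S100P, at 11.4, 27.5 and 36.9 against 21.7, 11.2 and 24.9 normalized counts, was too sparse to place closely, its interval running from -1.26 to 0.66.

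**Figure D2:**
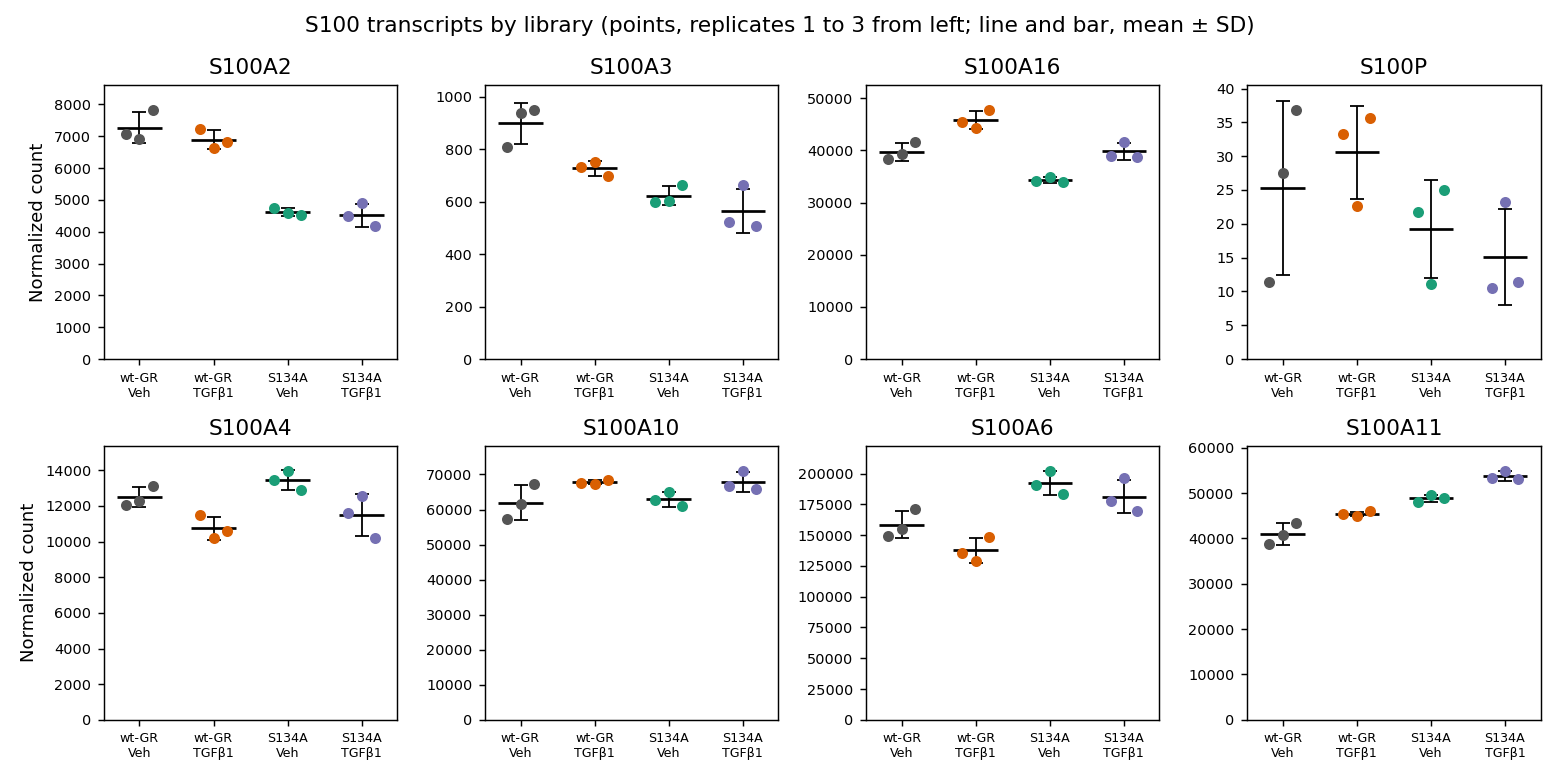
Normalized count (y axis, from 0) of each of the 8 tested members in every library, by group (x axis); points are libraries, and lines with bars give the mean ± SD of 3 libraries. The S134A-GR libraries lie below the wt-GR libraries for S100A2 (4173 to 4899 against 6636 to 7830) and above them for S100A11 (47964 to 54944 against 38685 to 45968).

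The same question under TGFβ1 gave the same 5 members with the same directions: S100A2, S100A3 and S100A16 were lower and S100A6 and S100A11 higher in S134A-GR cells. Over all genes 48.8% passed, 23.1% being higher and 25.7% lower, and 8.46% with the cutoff of 1, which 0 of 8 members met. The median over the 8 members was -0.10 and over all genes tested 0.01. The 2 comparisons of the lines use different libraries but the same 2 clones and a shared estimate of the spread. Their agreement is therefore no independent replication.

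S100A2 had 7225, 6636 and 6826 normalized counts in wt-GR TGFβ1 and 4480, 4899 and 4173 in S134A-GR TGFβ1 (log2 fold change -0.61, SE 0.06, adjusted p = 1.2e-06). S100A3 had 733, 751 and 697 against 523, 662 and 507, where the highest S134A-GR library came close to the lowest wt-GR library without crossing it (log2 fold change -0.37, SE 0.10, adjusted p = 0.0065). S100A16 had 45435, 44256 and 47791 against 38953, 41690 and 38777 (log2 fold change -0.20, SE 0.04, adjusted p = 0.00093). These 3 transcripts were lower in every S134A-GR TGFβ1 library than in any wt-GR TGFβ1 library. How many of all genes show no overlap between groups was not counted, so statements on overlap describe the members only.

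S100A6 had 135726, 128671 and 148759 normalized counts in wt-GR TGFβ1 and 177875, 196263 and 169728 in S134A-GR TGFβ1, a level 31.6% higher (log2 fold change 0.40, SE 0.07, adjusted p = 0.00019). S100A11 had 45343, 45038 and 45968 against 53299, 54944 and 53045, without overlap (log2 fold change 0.24, SE 0.04, adjusted p = 0.00013). S100A4 overlapped between the lines, with 11471, 10215 and 10586 against 11614, 12572 and 10220 normalized counts (log2 fold change 0.09, 95% interval -0.05 to 0.23, adjusted p = 0.29), and it passed without S134A-GR TGFβ1 replicate 3 (0.17, adjusted p = 0.030).

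S100A10 had 67679, 67353 and 68369 normalized counts in wt-GR TGFβ1 and 66617, 71113 and 65783 in S134A-GR TGFβ1, with an interval of -0.11 to 0.11 on the log2 scale (adjusted p = 1.0). S100P had 33.3, 22.7 and 35.6 against 10.5, 23.3 and 11.4 normalized counts, so S134A-GR TGFβ1 replicate 2 overlapped the wt-GR range. Its log2 fold change of -1.04 (SE 0.45) had an adjusted p of 0.071 in limma, and it passed when only the 2 groups compared were fitted (0.042), without wt-GR Veh replicate 1 (0.034) and without S134A-GR TGFβ1 replicate 2 (-1.38, adjusted p = 0.032).

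Ratios of 2 members within 1 library do not depend on how the library was scaled. The pairs S100A6 to S100A2 and S100A11 to S100A16 were chosen after their values were seen and are given as a description. The S100A6 to S100A2 ratio of normalized counts was 21.8 ± 0.585 (SD, n = 3) in wt-GR Veh, 19.99 ± 1.59 in wt-GR TGFβ1, 41.5 ± 2.22 in S134A-GR Veh and 40.1 ± 0.490 in S134A-GR TGFβ1. S100A11 to S100A16 stood at 1.03 ± 0.0176, 0.992 ± 0.0283, 1.42 ± 0.0159 and 1.35 ± 0.0290 in the same order of groups. Both ratios were higher in every S134A-GR library than in any wt-GR library.

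**Figure D3:**
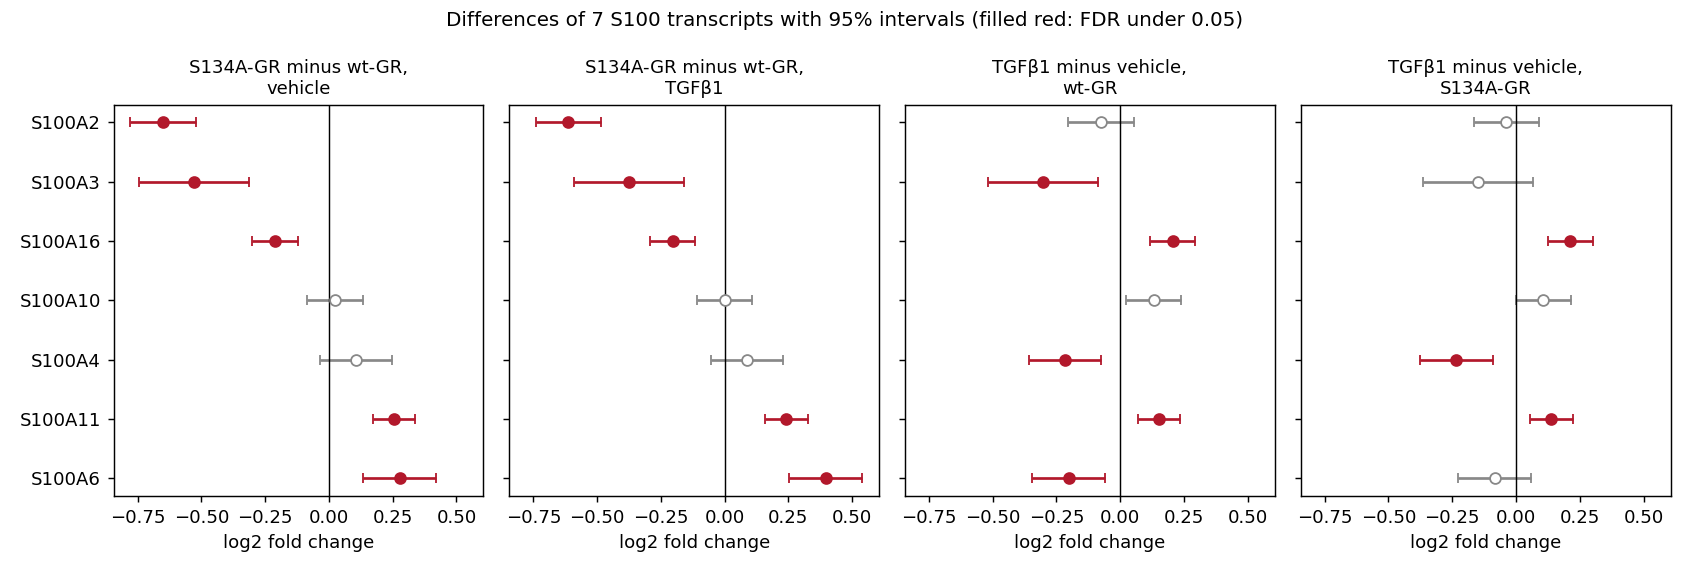
Log2 fold change (x axis) with its 95% interval for 7 members (y axis) in the 4 comparisons, filled red where the FDR was under 0.05; S100P is left out for its wide intervals. S100A2 stands at -0.65 and -0.61 between the lines and at -0.08 and -0.04 after TGFβ1, whereas S100A16 falls on opposite sides of 0 for line (-0.21 and -0.20) and treatment (0.20 and 0.21).

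The next question was how each line responded to TGFβ1. In wt-GR cells, S100A11 and S100A16 rose and S100A3, S100A4 and S100A6 fell, which is 5 of 8 members. Over all genes 21% passed, 11.2% being higher and 9.82% lower, and 2.29% passed with the cutoff of 1, which 0 of 8 members met. In S134A-GR cells S100A11 and S100A16 rose and S100A4 fell, 3 of 8 members, against 18.7% of all genes, 10% higher and 8.69% lower. With the cutoff of 1 it was 0 of 8 members and 1.66% of genes. The median log2 fold change of the members was 0.03 in wt-GR and -0.06 in S134A-GR cells, and that of all genes tested was -0.00 and -0.01. The response of each line shares its vehicle and TGFβ1 libraries with the line comparisons above.

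S100A16 rose in both lines. The libraries given above average 39761 ± 1709 normalized counts in wt-GR Veh and 45828 ± 1800 in wt-GR TGFβ1, a rise of 15.3% (log2 fold change 0.20, SE 0.04, adjusted p = 0.0025). In S134A-GR cells it went from 34315 ± 529 to 39807 ± 1634, a rise of 15.9% (log2 fold change 0.21, adjusted p = 0.0021). The 2 groups of each line did not overlap, and the call held in all 22 alternatives in both lines.

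S100A11 averaged 40941 ± 2407 normalized counts in wt-GR Veh and rose to 45450 ± 474 in wt-GR TGFβ1 (log2 fold change 0.15, SE 0.04, adjusted p = 0.012) and it rose from 48830 ± 831 to 53763 ± 1031 in S134A-GR cells (0.14, adjusted p = 0.022). Both calls were lost when libraries were scaled to genes with short transcripts, with log2 fold changes of 0.09 (adjusted p = 0.14) and 0.11 (adjusted p = 0.073), and the call in wt-GR cells also when only the 2 groups compared were fitted (0.15, adjusted p = 0.067). The call in S134A-GR cells was lost without S134A-GR Veh replicate 1 (0.13, adjusted p = 0.089), without S134A-GR Veh replicate 3 (0.14, adjusted p = 0.062) and without S134A-GR TGFβ1 replicate 2 (0.12, adjusted p = 0.081). S100A10 moved by 0.13 in wt-GR (adjusted p = 0.082) and 0.11 in S134A-GR cells (adjusted p = 0.17), and it passed in wt-GR cells without wt-GR Veh replicate 3 (0.19, adjusted p = 0.0051).

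S100A4 averaged 12486 ± 558 normalized counts in wt-GR Veh and 10757 ± 646 in wt-GR TGFβ1, so it fell by 13.9% (log2 fold change -0.22, SE 0.07, adjusted p = 0.032). In S134A-GR cells it went from 13441 ± 557 to 11469 ± 1183 and fell by 14.9% (-0.23, adjusted p = 0.024). In wt-GR cells the call was lost without wt-GR Veh replicate 2 (-0.23, adjusted p = 0.069) or 3 (-0.18, 0.088) and without wt-GR TGFβ1 replicate 2 (-0.18, 0.12) or 3 (-0.20, 0.095). In S134A-GR cells it was lost without S134A-GR Veh replicate 1 (-0.23, adjusted p = 0.069) or 2 (-0.20, 0.094), without S134A-GR TGFβ1 replicate 3 (-0.15, 0.096), and when only the 2 groups compared were fitted (0.11). The direction was downward in every one of these fits.

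In wt-GR cells S100A3 fell from 898 ± 78.4 to 727 ± 27.6 normalized counts (log2 fold change -0.30, SE 0.10, adjusted p = 0.046), and S100A6 from 158430 ± 11082 to 137719 ± 10191 (-0.20, SE 0.07, adjusted p = 0.045). Both calls lie next to the threshold. S100A3 lost it without any 1 of the 3 wt-GR TGFβ1 libraries, without any 1 of the 3 S134A-GR Veh libraries and without wt-GR Veh replicate 2 or 3, with log2 fold changes of -0.33 to -0.26 and adjusted p of 0.053 to 0.15. S100A6 lost it without wt-GR Veh replicate 2 or 3, wt-GR TGFβ1 replicate 1 or 2, or S134A-GR Veh replicate 1 or 3, with -0.22 to -0.15 and adjusted p of 0.052 to 0.18. In S134A-GR cells S100A3 had 622 ± 36.9 and 564 ± 85.3 normalized counts (-0.15, adjusted p = 0.36) and S100A6 191983 ± 9686 and 181289 ± 13592 (-0.08, adjusted p = 0.45).

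S100A2 showed no detectable response: 7271 ± 489 against 6896 ± 301 normalized counts in wt-GR cells (log2 fold change -0.08, 95% interval -0.20 to 0.05) and 4627 ± 120 against 4518 ± 364 in S134A-GR cells (-0.04, interval -0.17 to 0.09). S100P, at 25.2 ± 12.9 and 30.6 ± 6.90 in wt-GR and 19.3 ± 7.21 and 15.1 ± 7.14 in S134A-GR cells, overlapped in both lines.

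Whether the response depended on the line was tested directly, as the S134A-GR response minus the wt-GR response. None of the 8 members passed in limma (0 of 8, against 0.414% of all genes, and 0.0592% with the cutoff of 1). The number with an unadjusted p under 0.05 was also 0, as was the number past the FDR in edgeR's quasi-likelihood test and in DESeq2, and the lowest adjusted p over the members was 0.73. The interval of the difference was -0.12 to 0.13 for S100A16, -0.13 to 0.10 for S100A11, -0.18 to 0.13 for S100A10, -0.14 to 0.22 for S100A2 and -0.22 to 0.18 for S100A4. It was wider for S100A6 (difference 0.12, interval -0.08 to 0.32) and S100A3 (0.15, -0.15 to 0.46), the 2 members that passed in wt-GR cells and not in S134A-GR cells, and widest for S100P (-2.10 to 0.63). A different response of S100A3 and S100A6 in the 2 lines was therefore not shown.

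In wt-GR Veh and in S134A-GR TGFβ1 the members moved as a set from library to library. Over the 7 members other than S100P, wt-GR Veh replicate 3 was the highest of its group for 7 of 7 and S134A-GR TGFβ1 replicate 2 for 7 of 7, by a mean of 0.09 and 0.11 on the log2 scale above the group mean. S134A-GR TGFβ1 replicate 3 was the lowest for 7 of 7 (-0.09) and wt-GR Veh replicate 1 for 6 of 7 (-0.08). In the other groups the highest library differed between members, and the mean deviations were smaller. They were -0.04 to 0.02 in wt-GR TGFβ1, where replicate 2 was the lowest for 6 of 7, and -0.02 to 0.03 in S134A-GR Veh. For 681 genes with short transcripts, deviations were taken from the mean over the 12 libraries and not from the group mean. Their median was -0.12, -0.11 and 0.02 in wt-GR Veh replicates 1 to 3. In S134A-GR TGFβ1 replicates 1 to 3 it was 0.02, 0.09 and 0.05, so replicate 3 was not the lowest there. The members' transcripts are short as well, and the part of this in the results was not tested beyond the rescaling given with S100A11. After that rescaling the 5 calls between the lines held under both treatments, with other sizes. Under vehicle the log2 fold changes were then 0.16 for S100A11, 0.19 for S100A6, -0.30 for S100A16, -0.62 for S100A3 and -0.74 for S100A2, and under TGFβ1 0.19, 0.34, -0.26, -0.43 and -0.67.

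**Figure D4:**
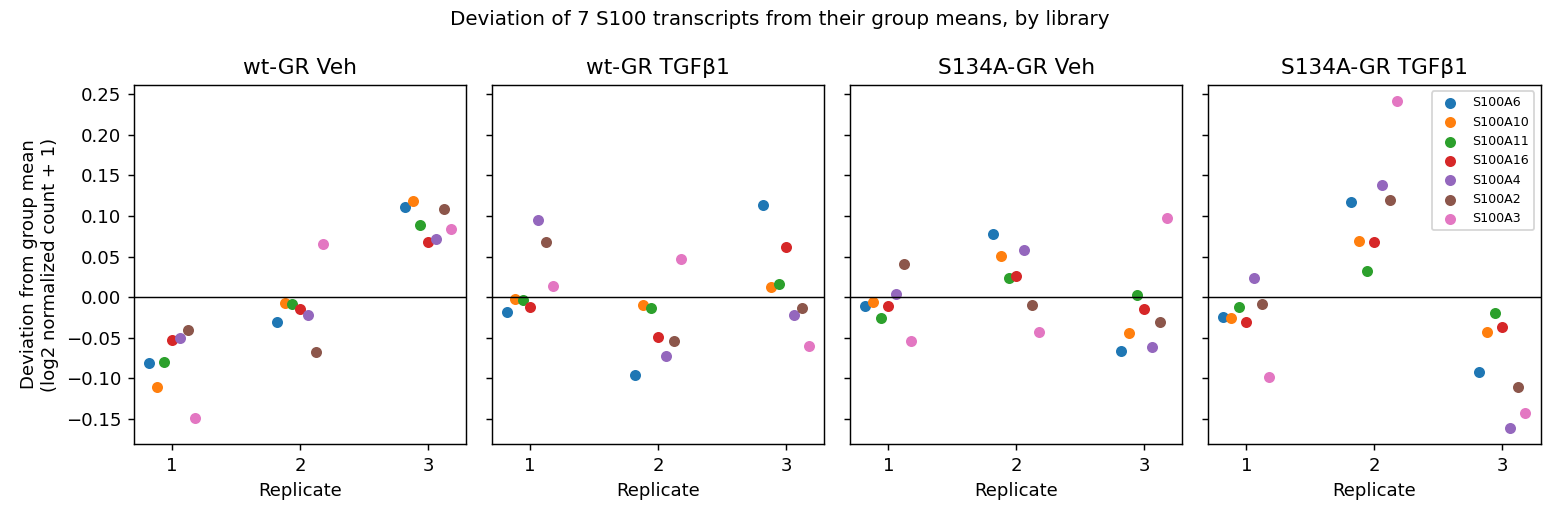
Deviation of 7 members (colours) from their group mean of log2(normalized count + 1) (y axis) in each library (x axis, replicates 1 to 3, 1 panel per group). All 7 points lie above 0 in wt-GR Veh replicate 3 and S134A-GR TGFβ1 replicate 2 and below 0 in wt-GR Veh replicate 1 and S134A-GR TGFβ1 replicate 3.

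In GENCODE v44 (hg38), S100A6 (chr1:153534599-153536244), S100A4 (chr1:153543613-153550136), S100A3 (chr1:153547329-153549258), S100A2 (chr1:153561108-153567890) and S100A16 (chr1:153606886-153613145) follow each other on the minus strand. S100A10 (chr1:151982915-151993859) and S100A11 (chr1:152032506-152047907) lie apart from them on the same arm, and S100P lies on chromosome 4 (chr4:6693878-6697170). S100A3 sits within the span of S100A4 without sharing exon bases, and under vehicle S100A3 was lower in S134A-GR cells (-0.53) while the interval of S100A4 included 0. Exons of S100A6 overlap a gene on the other strand over 3.81% of their length, and reads there cannot be assigned to 1 of them without strand. No stretch of 75 bases, the read length, in the transcripts of the 10 members was found in transcripts of another gene.

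Between S100A6 and S100A4 lies S100A5, a calcium-, zinc- and copper-binding member that is no part of the 10. S100A5 had 166, 159 and 200.1 normalized counts in wt-GR Veh and 117, 117 and 95.3 in S134A-GR Veh (log2 fold change -0.67, SE 0.15, adjusted p = 0.0021), and 122, 112 and 109 in wt-GR TGFβ1 (against vehicle, log2 fold change -0.60, adjusted p = 0.012). Both calls held in all 22 alternatives. S100A5 did not pass between the lines under TGFβ1 (limma, log2 fold change -0.37, adjusted p = 0.063) or after TGFβ1 in S134A-GR cells (-0.30, adjusted p = 0.21). The difference between its responses did not pass either (0.30, adjusted p = 0.70), so an unequal response was not shown. S100A1, the member of heart and skeletal muscle, was higher in S134A-GR cells, with 54.2 ± 12.1 against 82.7 ± 6.79 normalized counts under vehicle (0.62 on the log2 scale, adjusted p = 0.032) and 50.05 ± 7.65 against 80.4 ± 17.8 under TGFβ1 (0.66, adjusted p = 0.025), calls that held in 16 and 18 of 22 alternatives. The vehicle call was lost without wt-GR Veh replicate 1 or 3 or any 1 S134A-GR Veh library and with scaling to genes with short transcripts (0.53, adjusted p = 0.057), the other without wt-GR TGFβ1 or S134A-GR TGFβ1 replicate 2 or 3, with adjusted p of at most 0.13 and 0.11. Exons of S100A1 overlap genes on the other strand, S100A13 among them, over 18.3% of their length.

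S100A13, which takes part in the release of proteins lacking a signal peptide, had 7518 ± 524 and 8276 ± 400 normalized counts in wt-GR Veh and S134A-GR Veh (log2 fold change 0.14, adjusted p = 0.048), and this call held in only 7 of 22 alternatives. Exons of S100A13 overlap another gene on the same strand over 24.2% of their length, and S100A1 on the other strand over 10.6%. S100A14 (14.8 normalized counts on average) and S100Z (31.3) passed in no comparison. Of the 11 other S100 genes looked for, 8 were listed and 6 tested. Of these 6, the S134A-GR line had 2 higher and 1 lower under vehicle and 1 higher under TGFβ1, and 1 gene fell with TGFβ1 in wt-GR cells. Over all genes tested, 25% were higher and 26.5% lower under vehicle and 23.1% higher under TGFβ1, and 9.82% fell in wt-GR cells.

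Proteins that S100 members bind inside the cell were also followed, as a list of 12 genes that were all tested. In S134A-GR against wt-GR cells, 2 of 12 were higher and 8 lower with vehicle, and 2 higher and 6 lower under TGFβ1. Over all genes tested, 25% were higher and 26.5% lower with vehicle, and 23.1% and 25.7% under TGFβ1. Among the lower calls, that of ANXA2 under vehicle (limma, log2 fold change -0.10, adjusted p = 0.048) held in 8 of 22 alternatives, and 1 under TGFβ1 in 17. Scaling to genes with short transcripts removed 1 of the higher calls under each treatment. Apart from AHNAK, the other calls held in all 22. SUGT1, a co-chaperone that binds S100A6, had the largest difference, with 3755 ± 150 against 2426 ± 106 normalized counts under vehicle (-0.63 on the log2 scale, adjusted p = 6.9e-08) and -0.48 under TGFβ1 (adjusted p = 1.2e-06). MYH9, the non-muscle myosin heavy chain that S100A4 binds, was lower as well (log2 fold change -0.31, adjusted p = 0.0063 under vehicle and -0.30, adjusted p = 0.0082 under TGFβ1), and its vehicle value was -0.18 without wt-GR Veh replicate 1 (adjusted p = 0.012). ANXA1, the annexin that S100A11 binds, was higher in S134A-GR than in wt-GR cells (0.31, adjusted p = 9.2e-06 under vehicle and 0.36, adjusted p = 2.4e-06 under TGFβ1). AHNAK, a giant scaffold tied to S100A10 and annexin A2, had 320263, 191344 and 133341 normalized counts in wt-GR Veh and 132604, 115900 and 157098 in S134A-GR Veh. The groups overlapped, and wt-GR Veh replicate 1 stood highest. The log2 fold change under vehicle was -0.59 (adjusted p = 0.039), a call held in 14 of 22 alternatives, and it was -0.25 without that library (adjusted p = 0.17) and -0.88 without wt-GR Veh replicate 3 (adjusted p = 0.00065).

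After TGFβ1, 2 of these 12 genes rose and 4 fell in wt-GR cells, and 3 rose and 2 fell in S134A-GR cells. Over all genes tested, 11.2% rose and 9.82% fell in wt-GR cells, and 10% and 8.69% in S134A-GR cells. ANXA11, an annexin that binds S100A6, fell by 0.29 on the log2 scale in wt-GR (adjusted p = 4.7e-05) and by 0.24 in S134A-GR cells (adjusted p = 0.00022), in all 22 alternatives each. EZR, which encodes the membrane linker ezrin bound by S100P, fell in wt-GR (-0.15, adjusted p = 0.0049) and in S134A-GR cells (-0.11, adjusted p = 0.038, held in 14 of 22 alternatives). ANXA2, the partner of S100A10, rose in wt-GR (0.14, adjusted p = 0.017, held in 16 of 22 alternatives, 0.08 with the short-transcript scaling) and in S134A-GR cells (0.15, adjusted p = 0.014, held in 18). SUGT1 rose in S134A-GR cells (0.15, adjusted p = 0.037, held in 14 of 22 alternatives). AHNAK fell in wt-GR cells (-0.68, adjusted p = 0.042, held in 13 of 22 alternatives), and without wt-GR Veh replicate 1 its log2 fold change was -0.34 (adjusted p = 0.13). None of the 12 genes passed the test of unequal response between the lines, SUGT1 and AHNAK included. The difference was 0.41 for AHNAK (adjusted p = 0.71), 0.04 for EZR (adjusted p = 0.81) and 0.01 for ANXA2 (adjusted p = 0.98).

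The genes whose pattern over the 4 groups lay nearest to S100A2 and S100A3 were found by the Euclidean distance between centred group means of log2(normalized count + 1), among 12461 genes with a mean of at least 100 normalized counts. For S100A2 these were USP25, which encodes a deubiquitinase (distance 0.01), RTN3, a reticulon of the endoplasmic reticulum (0.02), and FZD4, a Wnt receptor (0.03). USP25 averaged 4460 and 4223 normalized counts in wt-GR Veh and wt-GR TGFβ1 and 2827 and 2743 in S134A-GR Veh and S134A-GR TGFβ1. For S100A3 they were NHLRC3 (0.03), PLIN2, which encodes a lipid droplet coat protein (0.03), and CASP8AP2 (0.03). NHLRC3 averaged 1760.4, 1425, 1216 and 1076 in the same order of groups.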

How the data were processed

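The 12 RNA libraries were sequenced by the authors with a TruSeq kit in paired-end mode (75 bases), aligned to hg38 with HISAT2, counted per gene with featureCounts and scaled with DESeq2 (1.22.2). The deposited values are a normalized signal: counts divided by a size factor. Whole reads were recovered for 100% of values within 0.01 read, 56362036 to 129832227 per library. Of values of 1 to 20 reads, 59.9% were even, and whether both ends of a pair were counted is not given in the sources used here.

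Genes with at least 10 reads in sum were tested with limma 3.58.1 (R 4.3.3, trend, 4 group means, Benjamini-Hochberg over 18579 genes) on log2(value + 1), which understates fold changes of low genes. The fit was checked on simulated data. Alternatives were DESeq2 1.42.0 and edgeR 4.0.16 on the recovered reads, and other pseudocounts, filters, scalings and left-out libraries. Scaling to genes with transcripts under 1000 bases was added after seeing the data. Members and lists were chosen with earlier results of these data known. All members were named. Other S100 genes with a mean of at least 10 were named, and of the partners and receptors the 3 with the largest called change per comparison. Annotation and lengths are from GENCODE v44 (hg38), with a length for 88.0% of symbols. Counting strand was not given. Libraries with the same replicate number shared no strong deviation (correlation of deviations -0.15 to 0.15 over 12468 genes, against -0.20 to 0.22 for other numbers). This cannot tell whether they were handled together, which the sources used here do not say.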

Additional observations from a re-analysis of the deposited data

How the results depend on the processing

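Of 872 refits of 40 member fold changes, 804 kept direction and side of the threshold, 37 lost the call, 5 gained it and 26 changed sign, each in a value that had not passed. The 5 members that differed between the lines under vehicle passed in all 22 alternatives, and under TGFβ1 5 or 6 members passed. With the cutoff of 1 on the log2 scale, 1 member, S100P, passed between the lines under TGFβ1 when only the groups compared were fitted, and 0 to 1 on leaving out a library. In wt-GR cells the count of 5 responding members was 3 with a pseudocount of 16, 3 without a filter beyond 1 read, 3 with TMM scaling and 3 with only the groups compared, and 2 to 5 on leaving out a library. In S134A-GR cells it was 1 to 3 against 3. The cause was not tested.

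Sign changes were as follows. Scaling to short transcripts moved the difference between responses to 0.0188 for S100A4, 0.0124 for S100A10 and 0.0229 for S100A11, and S100A10 between the lines under vehicle to -0.0686. It shifted the median of all genes by -0.09 to 0.04. TMM scaling moved the difference of S100A16 to -0.00031. On leaving out a library, S100A2 in S134A-GR cells ran from -0.0975 to 0.0182 with TGFβ1 and its difference from -0.0223 to 0.0934. The difference ran from -0.0864 to 0.0630 for S100A4, -0.0830 to 0.0311 for S100A10, -0.0577 to 0.0265 for S100A11 and -0.0254 to 0.0391 for S100A16. S100A10 between the lines ran from -0.0311 to 0.0830 under vehicle and -0.0345 to 0.0217 under TGFβ1, and S100P from -0.769 to 0.0355 between the lines under vehicle and -0.0825 to 0.722 with TGFβ1 in wt-GR cells.

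With the replicate block, the counts of members were 5, 5, 4, 3 and 0 over the 5 comparisons, S100A6 in wt-GR cells losing its call (-0.20, adjusted p = 0.062). Whether libraries with the same replicate number were handled together is not given in the sources used here. Depth limits what can be said of S100P and S100A9. All of this concerns RNA in 1 clone per line at 1 time point, and protein was not measured.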

Other observations

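The receptors for released S100 proteins and the fused-type S100 genes add a few values. Of 5 receptor genes, all tested, 1 was lower in S134A-GR cells under each treatment and 1 fell with TGFβ1 in wt-GR cells. Over all genes tested, 26.5% were lower in S134A-GR cells under vehicle and 25.7% under TGFβ1, and 9.82% fell with TGFβ1 in wt-GR cells. TLR4, a receptor for S100A8 and S100A9, averaged 2701 ± 195 (normalized counts, SD, n = 3) in wt-GR Veh, 2158 ± 70.9 in wt-GR TGFβ1, 2194 ± 110 in S134A-GR Veh and 1997 ± 153 in S134A-GR TGFβ1. Under vehicle it was lower in the S134A-GR line (limma, log2 fold change -0.30, adjusted p = 0.0016) and fell with TGFβ1 in wt-GR cells (-0.32, adjusted p = 0.0029), both in all 22 alternatives. The difference between its responses did not pass (0.18, adjusted p = 0.57). BSG, which encodes basigin, was lower in S134A-GR cells under TGFβ1 (-0.16, adjusted p = 0.0077).

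The fused-type genes join an S100 domain to a long repeat and build the surface of skin and hair. Of 7 such genes, 6 were listed and 5 tested. TCHH, which encodes trichohyalin of the hair follicle, was higher in S134A-GR cells in all 22 alternatives, with 13.7 ± 4.84 against 48.2 ± 8.31 normalized counts under vehicle (1.79 on the log2 scale, adjusted p = 0.0045) and 9.09 ± 5.44 against 38.9 ± 12.3 under TGFβ1 (2.13, adjusted p = 0.0014). With a pseudocount of 16 these were 1.12 and 1.13. FLG, which encodes filaggrin, averaged 2452 normalized counts over the 12 libraries, and it was higher in S134A-GR cells under TGFβ1 (0.55, adjusted p = 0.019), a call lost without wt-GR TGFβ1 replicate 1 or S134A-GR TGFβ1 replicate 1 and with the short-transcript scaling (adjusted p at most 0.077). HRNR (189 normalized counts on average) and FLG2 (21.4) passed in no comparison.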
